A study of Mus musculus with 2 samples.

Results

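Genes whose proteins fill the secondary and tertiary granules of neutrophils, 10 in number, were followed through 2 single-cell RNA libraries of mouse bone marrow. The genes were a fixed list, Ltf, Lcn2, Camp, Ngp, Cd177, Pglyrp1, Mmp8, Mmp9, Wfdc21 and Fcnb, and all 10 were found among the 27998 genes of the count tables. The marrow library holds CD45+ CD3- Ly6G- marrow cells of 3 naive C57BL/6 mice that were pooled. The Car1-GFP library holds CD45+ marrow cells that expressed Car1-GFP, pooled from 3 naive reporter mice with the C57BL/6 background. Each library is 1 sample per group, so differences have no replicate check and no test was made. All intervals given are exact 95% intervals that cover counting error only, from the Poisson distribution for a level and from the binomial distribution for a share or a ratio. A count is of UMIs, the molecular identifiers that mark single captured RNA molecules, and a level is given as CPM, the count over all UMIs of a group of barcodes, scaled so that 10000 CPM is 1% of the UMIs. Since UMIs were read from the 3′ ends of transcripts, CPM was not divided by gene length.

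Neutrophils build their granules one kind after another as they mature in the marrow. Primary granules, with myeloperoxidase and serine proteases, are made first, secondary (specific) granules with lactoferrin and the cathelicidin follow, and tertiary (gelatinase) granules, with gelatinase B, come last. A granule protein is sorted according to when its gene is active, and the factor C/EBPε is needed for genes of the secondary granules. Of the 10 genes, Ltf encodes lactoferrin, which binds iron. Lcn2 encodes a lipocalin that binds bacterial siderophores, and Camp encodes the precursor of the cathelicidin peptide CRAMP. Ngp encodes neutrophilic granule protein, and Cd177 encodes a surface glycoprotein also held in granule membranes. Pglyrp1 encodes a peptidoglycan recognition protein, Wfdc21 a small secreted protein with a whey acidic protein domain, and Fcnb the lectin ficolin B. Mmp8 is neutrophil collagenase, and Mmp9 is gelatinase B, the protein that gives tertiary granules their other name.

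In the GENCODE M21 annotation of mm10, all 10 are protein-coding genes on 4 chromosomes. Camp (chr9:109847379-109849617, minus strand), Ngp (chr9:110419747-110423012, plus strand) and Ltf (chr9:111019271-111042767, plus strand) lie within 1.20 Mb of each other, and Mmp8 (chr9:7558456-7568485, plus strand) lies elsewhere on chromosome 9. Fcnb (chr2:28076378-28084885, minus strand), Lcn2 (chr2:32384633-32388252, minus strand) and Mmp9 (chr2:164940780-164955850, plus strand) are on chromosome 2. Pglyrp1 (chr7:18871331-18890459, plus strand) and Cd177 (chr7:24743983-24760311, minus strand) are on chromosome 7, and Wfdc21 (chr11:83746940-83752642, plus strand) is on chromosome 11.

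RefSeq promoter sequences (build GRCm38.p6, 250 bases before to 50 bases after a gene's start) were matched by symbol for 8 of the 10 genes, all but Mmp9 and Wfdc21. They were searched for the C/EBP-like octamer TTGCNNAA or TTNNGCAA, which are reverse complements of each other and so cover both strands. The octamer was found in 5 of the 8 promoters, with 2 matches each in Fcnb and Ngp, 1 each in Lcn2, Ltf and Mmp8, and 0 in Camp, Cd177 and Pglyrp1. Of 32851 promoters of the same length, 10.8% held it. The PU.1-like hexamer GAGGAA or TTCCTC was found in 5 of 8 promoters against 28.3% of all, and TATAAA or its reverse complement TTTATA in 2 of 8 against 13.6%. A match is a string of letters, not a site shown to be bound. The 250 bases before the start are shown for 5 genes of the order of expression described below. These are Fcnb, with the lowest mean range, Mmp8, with the highest, and Camp, Ngp and Ltf, which lie near each other on chromosome 9. Each is written 5′ to 3′ on the gene's own strand, and capitals mark the C/EBP-like matches. The Fcnb stretch is chr2:28084879-28085128 on the minus strand, the Camp stretch chr9:109849457-109849706 on the minus strand, the Ngp stretch chr9:110419558-110419807 on the plus strand, the Ltf stretch chr9:111019042-111019291 on the plus strand and the Mmp8 stretch chr9:7558179-7558428 on the plus strand.
Fcnb: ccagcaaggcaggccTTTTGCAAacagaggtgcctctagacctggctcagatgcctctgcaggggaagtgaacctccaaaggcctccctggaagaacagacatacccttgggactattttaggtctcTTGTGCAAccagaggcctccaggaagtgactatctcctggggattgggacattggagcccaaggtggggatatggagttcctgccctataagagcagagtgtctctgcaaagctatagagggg
Camp: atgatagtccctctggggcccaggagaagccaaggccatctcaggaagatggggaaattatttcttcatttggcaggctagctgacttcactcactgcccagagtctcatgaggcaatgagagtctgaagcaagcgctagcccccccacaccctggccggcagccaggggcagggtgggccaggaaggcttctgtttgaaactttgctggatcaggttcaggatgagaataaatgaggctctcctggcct
Ngp: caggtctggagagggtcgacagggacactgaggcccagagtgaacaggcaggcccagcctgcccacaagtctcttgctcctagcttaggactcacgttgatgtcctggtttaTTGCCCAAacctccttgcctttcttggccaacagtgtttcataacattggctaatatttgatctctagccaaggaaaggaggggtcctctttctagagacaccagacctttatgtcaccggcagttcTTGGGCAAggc
Ltf: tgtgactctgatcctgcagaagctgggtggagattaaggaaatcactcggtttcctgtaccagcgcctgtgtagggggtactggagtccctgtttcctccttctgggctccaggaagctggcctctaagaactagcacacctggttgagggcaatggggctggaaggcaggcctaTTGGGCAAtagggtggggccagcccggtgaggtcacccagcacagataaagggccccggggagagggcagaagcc
Mmp8: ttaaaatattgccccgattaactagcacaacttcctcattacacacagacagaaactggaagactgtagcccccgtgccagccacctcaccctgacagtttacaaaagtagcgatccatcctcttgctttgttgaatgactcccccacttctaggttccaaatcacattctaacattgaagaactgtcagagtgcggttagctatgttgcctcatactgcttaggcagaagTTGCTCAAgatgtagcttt

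After filtering, the marrow library held 6268 barcodes with 8303633 UMIs (median 1031 per barcode), and the Car1-GFP library held 2400 barcodes with 42795219 UMIs (median 15512.5). The design text states 10000 sorted cells. The libraries had 14 barcode sequences in common. Clusters were formed with the 10 genes, S100a8 and S100a9 left out. They were named from fixed marker lists, with the ending -like because no deposited annotation of cells was used. The neutrophil marker list did hold S100a8 and S100a9, so the name neutrophil-like is not independent of the rule that follows. Of the 11 clusters of the Car1-GFP library, 8 were erythroid-like and 3 were left unnamed, and no marrow cluster was T-like. A barcode was counted as a neutrophil where S100a8 and S100a9, the subunits of the calcium-binding protein calprotectin, made up 15% or more of its UMIs. This rule took 2093 marrow barcodes (median 1056 UMIs), of which 2007 lay in the 2 neutrophil-like clusters of 2049 barcodes and 43 in the granulocyte-monocyte progenitor-like cluster. It also took 30 of the 933 barcodes in B lineage-, NK and innate lymphoid-, erythroid- and plasmacytoid dendritic-like clusters. The sort was against the protein Ly6G, and the RNA of Ly6g, the gene of that protein, was found in 21.7% of neutrophil barcodes, at 236 CPM. All levels, shares and orders below are those of the neutrophils that this sort left. How far it removed late stages was not tested, so they do not describe all neutrophils of the marrow.

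All 10 granule genes were at least 2-fold higher in neutrophil barcodes than in the other 4175 marrow barcodes, where 4.39% of 10429 measured genes were. The genes together made up 10.7% of all UMIs of the neutrophil barcodes and 0.606% of the UMIs of the others. Camp and Ngp were the most abundant, with 48438 CPM (95% interval 48166 to 48711) and 31951 CPM (31730 to 32173), followed by Wfdc21 at 9105, Lcn2 at 6879, Ltf at 5575 and Pglyrp1 at 2835 CPM. The 4 least abundant were Fcnb at 872 CPM, Cd177 at 656, Mmp8 at 322 (300.3 to 345) and Mmp9 at 283 (262 to 304). No neighbours in this order had overlapping intervals except Mmp8 and Mmp9. The highest folds were those of Ngp at 19.97-fold, Lcn2 at 19.7-fold, Camp at 17.9-fold, Ltf at 16.7-fold and Wfdc21 at 16.0-fold. Cd177 was 14.4-fold and Pglyrp1 13.1-fold higher, and the smallest folds were those of Fcnb (7.37), Mmp9 (6.02) and Mmp8 (4.29). S100a8 and S100a9, which the rule itself used, had folds of 16.4 and 17.8. The other marrow barcodes held Camp at 2699 CPM, Ngp at 1600, Lcn2 at 350 and Fcnb at 118. The non-myeloid barcodes described below held these genes at 2482, 1517, 344 and 32.0 CPM. The folds thus depend on RNA also found in lineages that do not form neutrophil granules, and do not rank the genes by how far they are confined to neutrophils. The median log2 ratio of the 10 genes was 3.92, and that of all measured genes was -0.90. With at least 1000 UMIs required per barcode, the log2 ratio of Mmp8 was 0.78 in place of 2.0999 and that of Mmp9 1.55 in place of 2.59, so 9 of 10 genes passed.

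The values at the edge of the 15% rule were as follows. The 38 barcodes with S100a8 and S100a9 at 13% to under 15% of UMIs had 23858 CPM of Camp, 2122 CPM of Ltf and 1386 CPM of Fcnb. The 39 barcodes at 15% to under 17% had 28065 CPM of Camp, 2857 CPM of Ltf and 1544 CPM of Fcnb. On both sides Fcnb was above, and Camp and Ltf were below, the level over all neutrophil barcodes.

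Single barcodes were compared after each was thinned to 500 UMIs. At this depth, Ngp was found in 99.95% of neutrophil barcodes, Camp in 99.9%, Wfdc21 in 97.9%, Lcn2 in 94.2%, Ltf in 89.2% and Pglyrp1 in 74.5%. Cd177 was found in 29.1% (27.1 to 31.0), Fcnb in 25.3% (23.4 to 27.2), Mmp9 in 14.1% (12.6 to 15.7) and Mmp8 in 13.1% (11.7 to 14.7). Without thinning, the shares for these last 4 were 51.3%, 43.1%, 22.4% and 19.0%. Neutrophil barcodes had a median of 6 of the 10 genes at this depth, and 99.7% had at least 4. In barcodes of lymphoid-, erythroid- and plasmacytoid dendritic-like clusters (median 826 UMIs), Camp was still found in 70.4% and Ngp in 48.5%, but only 6.09% had at least 4 of the genes.

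To order the genes over neutrophil maturation, the neutrophil barcodes were ranked by an index of 32 other genes. The index set UMIs of 16 early genes (primary granule and cell division genes) against 16 late ones (such as Csf3r, Cxcr2 and Il1b), and 1851 barcodes with at least 5 such UMIs were divided by rank into 5 ranges of 370 or 371 barcodes. The remaining 242 were left out. Range 1 is the early end and range 5 the late end. A range is a stretch of a continuous index, not a cell type, and the median UMIs per barcode went from 1313.5 in range 1 and 1452 in range 2 to 757 in range 5.

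The granule genes split into 3 patterns over these ranges. In CPM, Fcnb went down, the collagenase Mmp8 and the gelatinase Mmp9 went up, and the other 7 changed by less than 2-fold. Fcnb had 1229, 1084, 951, 799 and 209 CPM in ranges 1 to 5, with most of the drop between ranges 4 and 5, and was 5.88-fold lower in range 5 than in range 1 (log2 -2.56, interval -2.94 to -2.19). Mmp8 had 23.1, 28.3, 58.1, 300.04 and 1756 CPM, a log2 ratio of 6.25 (5.43 to 7.21) that rests on 12 UMIs in range 1 and 563 in range 5. Per barcode, Mmp8 had 0.0324, 0.0432, 0.0757, 0.351 and 1.52 UMIs, beside 0.0642 in the non-myeloid barcodes described below. Ranges 1 and 2 lay below that value and range 3 just above it, and the source of these UMIs was not tested. The ratio is therefore not taken as the size of a change in expression. For Mmp9 the values were 65.5, 62.0, 97.6, 277 and 1269 CPM, with a log2 ratio of 4.28 (3.77 to 4.83). In CPM, its intervals in ranges 1 and 2 overlapped that of non-myeloid barcodes (43.1 CPM, 31.2 to 58.0). Per barcode, these ranges had 0.0919 (0.0636 to 0.128) and 0.0946 (0.0659 to 0.132) UMIs of Mmp9, above the 0.0476 of non-myeloid barcodes. Both metalloproteinases had their highest level in range 5. Thus 2 of 10 genes were at least 2-fold higher in range 5, where 8.57% of 3572 measured genes were, and 1 of 10 was at least 2-fold lower, where 18.9% were. Ly6g, which is outside the list, had 125, 108, 158, 293 and 546 CPM.

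**Figure D1:**
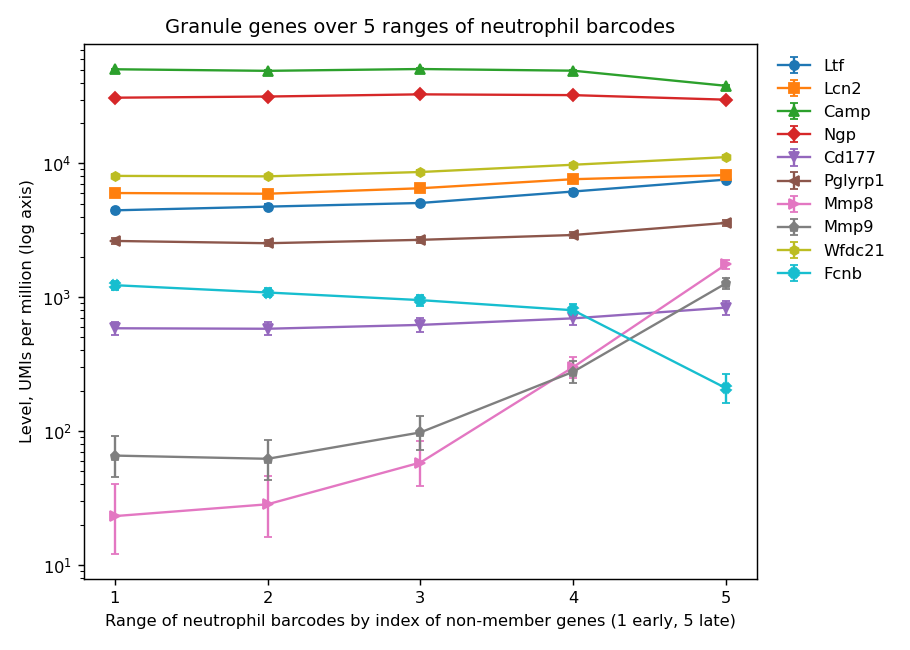
Levels of the 10 granule genes in CPM (log axis) over 5 ranges of neutrophil barcodes, from early (1) to late (5), in 1 marrow library; bars are exact 95% Poisson intervals. Mmp8 climbs from 23.1 to 1756 CPM and Mmp9 from 65.5 to 1269, Fcnb drops from 1229 to 209, and the other 7 lines stay within 2-fold between the ends.

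The other 7 genes, Camp, Ngp, Ltf, Lcn2, Wfdc21, Pglyrp1 and Cd177, differed in CPM by less than 2-fold between ranges 1 and 5. Camp had 50484, 49141, 50700, 49267 and 37983 CPM, with the lowest level in range 5 (log2 -0.41 against range 1, -0.44 to -0.38). Ngp had 30954, 31582, 32791, 32349 and 29918 CPM, the smallest difference between the ends of all 10 genes (log2 -0.05, -0.09 to -0.01). Lactoferrin (Ltf) had 4457, 4750, 5057, 6160 and 7563 CPM (log2 0.76, 0.68 to 0.85). The siderophore-binding gene Lcn2 went from 6002 to 8168 CPM (log2 0.44, 0.37 to 0.52), Wfdc21 from 8060 to 11131 (0.47, 0.40 to 0.53), Pglyrp1 from 2632 to 3590 (0.45, 0.33 to 0.56) and Cd177 from 586 to 836 (0.51, 0.27 to 0.75). Summed over the 10 genes, the level stayed between 102423 and 110143 CPM in all ranges, while UMIs of these genes per barcode fell from 147 in range 1 to 88.5 in range 5. The median log2 ratio of the 10 genes in CPM was 0.46 and that of all measured genes -0.17. Per barcode, Camp fell from 70.8 UMIs in range 1 to 32.8 in range 5, Ngp from 43.4 to 25.9 and Wfdc21 from 11.3 to 9.62. Lcn2 went from 8.42 to 7.06, Pglyrp1 from 3.69 to 3.10 and Cd177 from 0.822 to 0.722, while Ltf went from 6.25 to 6.54. The rises in CPM of Lcn2, Wfdc21, Pglyrp1 and Cd177 are thus rises in share of a smaller UMI total.

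A mean range, weighting the range numbers by CPM, put the genes in the order Fcnb (2.46), Camp (2.90), Ngp (2.99), Pglyrp1 (3.16), Wfdc21 (3.17), Lcn2 (3.18), Cd177 (3.19), Ltf (3.27), Mmp9 (4.48) and Mmp8 (4.73). The 4 genes from Pglyrp1 to Cd177 had overlapping intervals of their ratio between the ends and are not ordered by these data, and the interval of Cd177 also overlapped that of Ltf. Ordering barcodes by the first principal component of the other genes gave the same calls, with log2 ratios of 4.25 for Mmp8, 3.10 for Mmp9 and -1.24 for Fcnb. Ordering them by the share of S100a8 and S100a9 gave 0.79 for Mmp8, 1.26 for Mmp9 and -1.97 for Fcnb, and turned Camp to 0.30 and Ngp to 0.26. Since Mmp8 in ranges 1 and 2 of the index was below its non-myeloid UMIs per barcode, and the order by share has the larger ratio for Mmp9, these 2 genes are not ordered against each other. With S100a8 and S100a9 left out of the UMI totals, or with at least 1000 UMIs per barcode, Ngp was at 0.04, so its direction is not settled. Over the same 1000-UMI barcodes, Mmp8 was at 4.68, Mmp9 at 2.99 and Fcnb at -1.02.

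Across 20 finer bins of the index, Mmp8 and Mmp9 moved with each other (Pearson r = 0.96), Ltf with Wfdc21 (r = 0.96) and Camp with Fcnb (r = 0.86) and with Ngp (r = 0.81), whereas Mmp9 and Fcnb had opposite courses (r = -0.90). These correlations are descriptions over bins of 1 library that share depth and the index. Of 4619 genes with at least 200 UMIs, the one most like Ltf over the bins was Anxa1, which encodes annexin A1 (r = 0.96), and the one most like Lcn2 was the lysozyme gene Lyz2 (r = 0.96). Camp was most like Chil3, a chitinase-like protein gene (r = 0.96), and Fcnb most like Tpx2, a spindle assembly gene (r = 0.96). The early side of the index counts other cell division genes, so the match of Fcnb with Tpx2 is not independent of how the bins were cut. For Mmp8 the gene was S100a6 (r = 0.95), and for Mmp9 it was Fcer1g, the gene of an Fc receptor chain (r = 0.96).

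The start of expression was followed, in an analysis chosen after the data were seen, over the granulocyte-monocyte progenitor-like and neutrophil-like clusters, cut into 8 steps by the share of S100a8 and S100a9. Each level is given as a percent of that gene's level over all neutrophil barcodes. Below a share of 2% (472 barcodes), the 10 genes stood at 3.3% to 11.3%, close to the 3.7% to 18.0% they reached in lymphoid-, erythroid- and plasmacytoid dendritic-like barcodes. Fcnb came first: it was at 66.9% in the step of 2% to 5% (99 barcodes), 167% at 5% to 10%, 226% at 10% to 15%, 208% at 15% to 20%, and then 164%, 73.1% and 44.0% in the last 3 steps. Pglyrp1 followed, with 20.4% at 2% to 5%, 35.0% at 5% to 10% and 63.0% at 10% to 15%, and Wfdc21 had 16.9%, 30.004% and 42.2% in those steps. Camp (4.8%, 19.7%, 46.1%) and Ngp (3.8%, 10.3%, 37.4%) were still near their values of the lowest step, 4.0% and 3.8%, at 2% to 5%.

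Ltf (5.4%, 7.5%, 25.0%) and Lcn2 (4.9%, 7.0%, 24.0%) were lower than Camp and Ngp, as percent of their own full level, at both 5% to 10% and 10% to 15%. Cd177 had 12.5% at 5% to 10% (8 UMIs), 18.9% at 10% to 15% and 42.9% at 15% to 20%. These 3 genes were at 84% to 93% in the step of 20% to 30% and above 100% at 30% to 40%. Mmp8 had 25.6%, 12.7%, 48.1% and 26.7% in the 4 steps between 2% and 20%, from 4 to 15 UMIs each, and Mmp9 had 26.9%, 28.9%, 36.5% and 47.0%, from 8 to 17 UMIs each. At such counts these 2 genes were not placed in an order of onset. They were highest at 30% to 40%, at 133% and 127%. So the order up to a share of 20% had Fcnb before Pglyrp1 and Wfdc21, Pglyrp1 before Camp and Ngp, and Ltf and Lcn2 behind them. Wfdc21 was not placed against Camp and Ngp. It was above both up to a share of 10%, but below Camp at 10% to 15%. At 15% to 20% it had 57.1%, against 69.3% for Camp and 67.3% for Ngp. This order is a reading of levels in 1 library. The share also chose the neutrophil barcodes that set each gene's 100% level. It does not rank barcodes as the index of other genes does: Camp was at log2 -0.41 between the end ranges of the index and at 0.30 between those of the share. Cd177, above Ngp at 5% to 10% and below it at 10% to 15%, was not placed either.

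**Figure D2:**
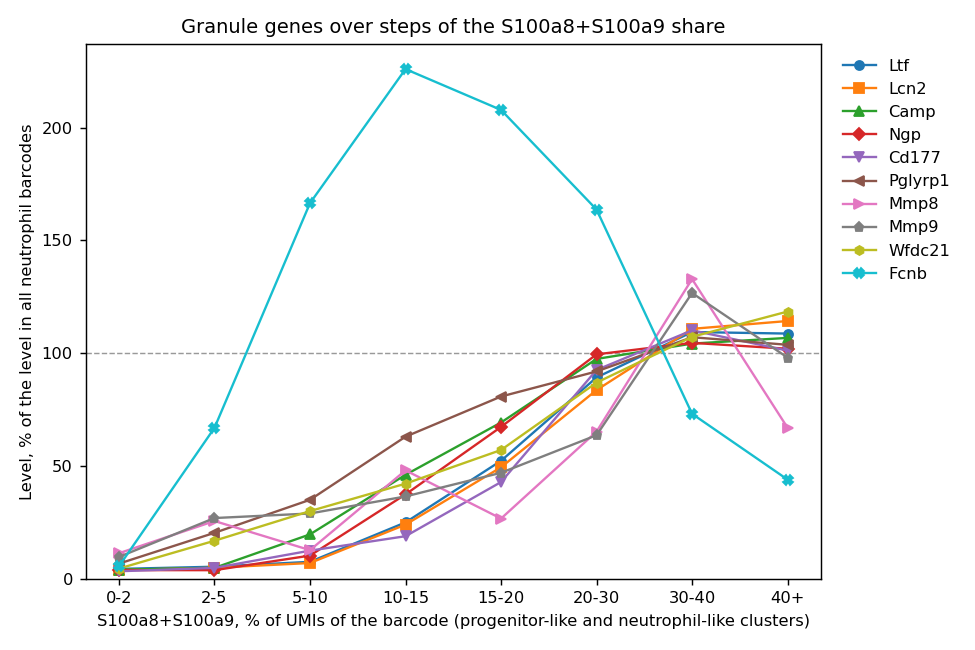
Level of each granule gene, as percent of its level in all neutrophil barcodes, over 8 steps of the S100a8 and S100a9 share of UMIs in progenitor-like and neutrophil-like clusters; the dashed line is 100%. Fcnb peaks at 226% in the step of 10% to 15% and is at 44.0% in the last step. The other genes have their highest level at 30% or more.

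Other genes of the pathway were taken from fixed lists. Of 8 primary granule genes, 5 were at least 2-fold lower in neutrophil barcodes than in the other marrow barcodes and 2 were higher, where 45.8% and 4.39% of all measured genes were. The lower ones included the cathepsin G gene Ctsg (log2 -3.24), the myeloperoxidase gene Mpo (-2.72), Cst7 (-2.24) and the proteinase gene Prtn3 (-1.97). The 2 higher ones, named after their values were seen, were Cd63 (1.501) and Serpinb1a (1.93), a protease inhibitor gene. Of 16 measured genes of other specific, gelatinase or secretory granules and granule membranes, 12 were higher and 0 lower, with log2 ratios of 3.86 for Chil1, 3.03 for Chil3, 2.94 for Ceacam10 and 2.85 for Anxa1. Of 7 measured granulocyte transcription factors, Cebpe (3.13), the gene of C/EBPε, and Klf5 (2.97) were higher, and Cebpa (-2.24) and Cebpb (-1.001) were lower. Between ranges 5 and 1, with genes of the index left out, 4 of 13 measured genes of the second list were higher and 0 lower, against 8.57% and 18.9% of all measured genes. Of these, 2 rest on 1 or 2 UMIs in range 1, Adam8 (5.34, interval 2.73 to 10.70) and Ceacam10 (5.19, 3.25 to 8.28). The others were Mcemp1 (1.18) and Itgam (1.03), the gene of an integrin chain of the granule membrane. The 2 measured primary granule genes and the 4 measured transcription factors changed by less than 2-fold, with Cebpe at 563 CPM in range 1 and 359 in range 5.

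Outside the neutrophil barcodes, granule gene UMIs were compared with those of non-myeloid barcodes, as UMIs per barcode. The non-myeloid group comprised 903 barcodes under 15% S100a8 and S100a9 in the B lineage-, NK and innate lymphoid-, erythroid- and plasmacytoid dendritic-like clusters, lineages that do not form neutrophil granules. In the 670 granulocyte-monocyte progenitor-like barcodes under the threshold (median 1950 UMIs), Fcnb was at 0.616 UMIs per barcode against 0.0354 in non-myeloid barcodes (log2 4.12, 3.60 to 4.69). Pglyrp1 was at 0.731 against 0.175 (2.06, 1.80 to 2.33) and Wfdc21 at 1.69 against 0.499 (1.76, 1.60 to 1.92). On the CPM scale, which takes account of the progenitor-like barcodes' greater depth, the log2 ratios were 3.20 for Fcnb, 1.15 for Pglyrp1 and 0.84 for Wfdc21, but 0.38 for Camp, 0.08 for Ngp, -0.18 for Lcn2 and -0.42 for Ltf. Thinned to 500 UMIs, 13.7% of these barcodes had Fcnb against 0.997% of non-myeloid ones, while 69.9% had Camp against 70.4%.

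Monocyte-like barcodes (1718, median 937 UMIs) had 5.90 UMIs of the 10 genes per barcode, close to the 6.06 of non-myeloid barcodes (log2 -0.04, -0.09 to 0.01). About 2-fold higher there were 3 genes: Fcnb at 0.0792 UMIs per barcode (1.16, 0.60 to 1.76), Mmp8 at 0.130 (1.02, 0.60 to 1.46) and Cd177 at 0.0786 (1.02, 0.47 to 1.60). The 2 monocyte-like clusters differed in Fcnb, which was at 0.109 UMIs per barcode in the cluster led by Fn1 and F13a1 (1112 barcodes, log2 1.62, 1.05 to 2.23) and at 0.0248 in the cluster led by Gngt2 and Clec4a3 (606 barcodes, -0.52, -1.51 to 0.41). Basophil/mast-like barcodes (113) had 0.558 UMIs of Pglyrp1 per barcode (1.67, 1.23 to 2.102). In 20 macrophage-like barcodes the 10 genes summed to 21.1 UMIs per barcode (1.80, 1.65 to 1.94), with Ltf at 2.35 and Lcn2 at 2.05. Another 7 of the 27 barcodes in that cluster passed the neutrophil rule. Conventional dendritic-like barcodes (145) had 4.72 UMIs of the 10 genes per barcode, below the non-myeloid value. For the 564 barcodes of an unnamed cluster with stem, erythroid and megakaryocyte genes, the sum was 9.13 per barcode, but their CPM was lower than that of non-myeloid barcodes (log2 -0.26).

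**Figure D3:**
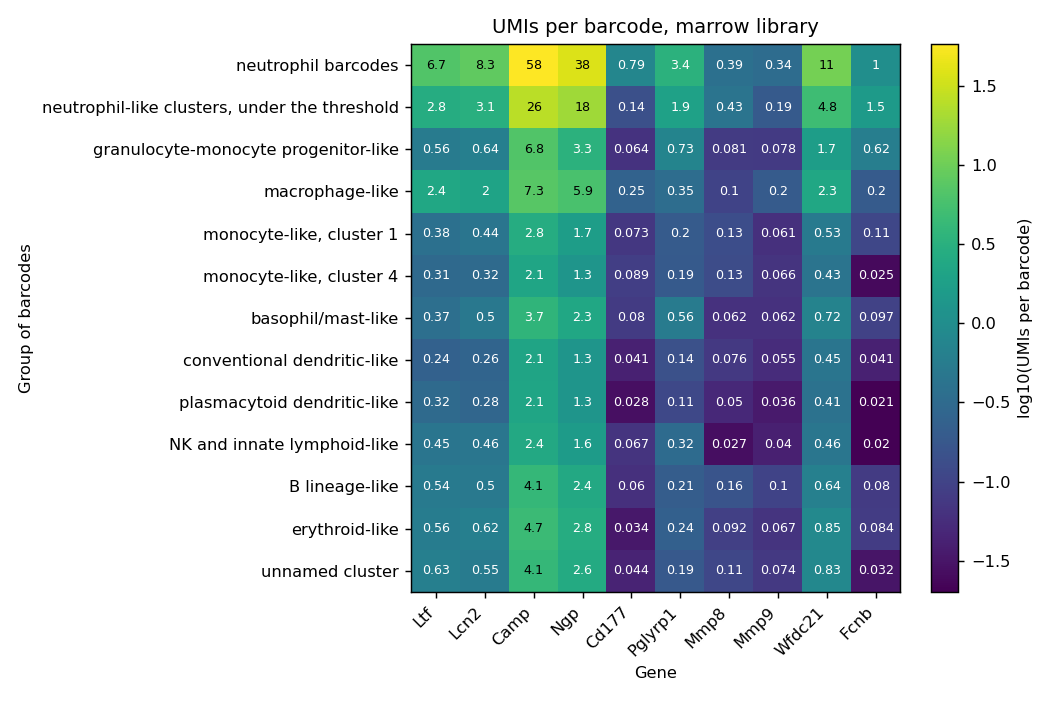
UMIs per barcode of each granule gene in groups of marrow barcodes, as printed numbers and as color on a log10 scale; groups other than neutrophil barcodes hold only barcodes under the 15% rule. Camp and Ngp have more than 1 UMI per barcode in every group, and the Fcnb column is high in the progenitor-like row (0.62) and the rows above it.

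RNA of the granule genes was present at a low level in nearly every non-myeloid barcode. Of the 903 non-myeloid barcodes (median 826 UMIs), 98.0% held at least 1 UMI of the 10 genes, with 5473 such UMIs in all. In the erythroid-like barcodes there were 10.0 per barcode (4579 CPM, median 1777 UMIs), in B lineage-like 8.85 (7074 CPM), in NK and innate lymphoid-like 5.90 (5862 CPM) and in plasmacytoid dendritic-like 4.71 (5433 CPM). Relative to S100a8 and S100a9 the 4 classes were alike, with 318 to 339 UMIs of the 10 genes per 1000 UMIs of S100a8 and S100a9. The 5 ranges of neutrophil barcodes had 346, 347, 336, 321 and 298. Single genes varied more between the 4 classes: Pglyrp1 ran from 7.77 to 17.4 per 1000, with the most in NK and innate lymphoid-like barcodes (0.322 UMIs per barcode).

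Gene by gene, the ratio to S100a8 and S100a9 in non-myeloid barcodes lay within 2-fold of the ratio in neutrophil barcodes for 8 of the 10 genes, and for 1.1% of 8362 measured genes. The measured genes include those that the non-myeloid barcodes express themselves, so the 1.1% is not a share for neutrophil genes. S100a8 and S100a9 also set the rule that divides the 2 groups, so the ratio is not independent of that rule. Camp had 147 UMIs per 1000 UMIs of S100a8 and S100a9 in non-myeloid and 150 in neutrophil barcodes (log2 -0.02, -0.08 to 0.04), and Ngp had 90.1 and 98.7 (-0.13, -0.20 to -0.06). The values were 26.8 and 28.1 for Wfdc21, 20.5 and 21.2 for Lcn2, 21.4 and 17.2 for Ltf (0.31, 0.16 to 0.46), 9.40 and 8.75 for Pglyrp1, and 2.08 and 2.03 for Cd177. For Fcnb they were 1.90 and 2.69 (-0.50, -1.05 to 0.00). The 2 exceptions were the metalloproteinases. Mmp8 had 3.45 against 0.995 (1.79, 1.38 to 2.18) and Mmp9 had 2.56 against 0.873 (1.55, 1.07 to 1.996), so both were higher in the non-myeloid barcodes. With at least 1000 UMIs per barcode, these log2 ratios were 3.47 for Mmp8 and 2.80 for Mmp9.

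**Figure D4:**
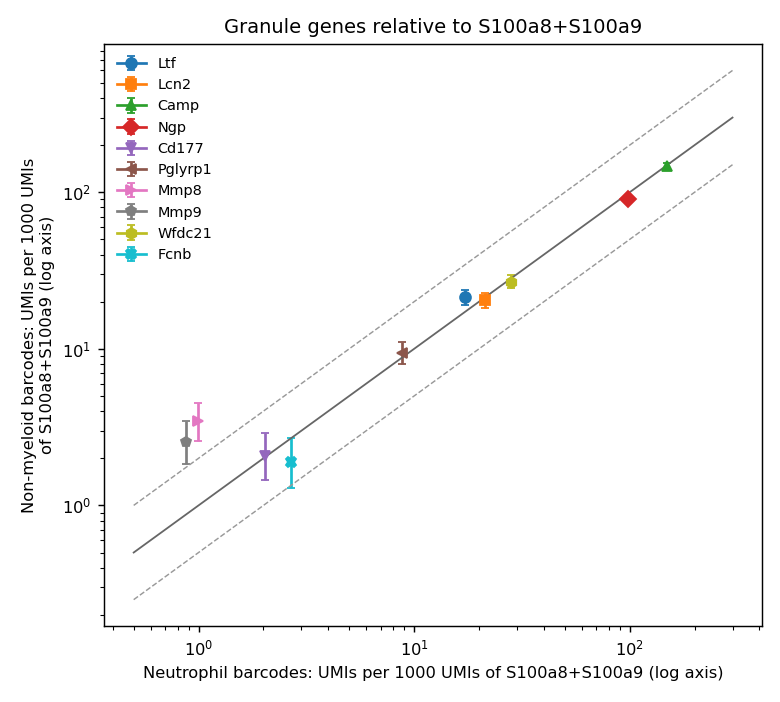
UMIs of each granule gene per 1000 UMIs of S100a8 and S100a9 in neutrophil barcodes (x, log axis) and in non-myeloid barcodes (y, log axis) of 1 marrow library; bars are 95% binomial intervals of the ratio, the solid line is equality and the dashed lines are 2-fold. Mmp8 (3.45 against 0.995) and Mmp9 (2.56 against 0.873) lie above the upper dashed line and the other 8 genes between the lines.

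The ratio in non-myeloid barcodes was nearest to that of the late neutrophil barcodes for Mmp8 and Mmp9 and not for Fcnb. Range 5 had 5.10 UMIs of Mmp8 and 3.69 of Mmp9 per 1000 UMIs of S100a8 and S100a9, and ranges 1 to 3 had at most 0.181 and 0.304. Fcnb, at 1.90 in non-myeloid barcodes, lay between 2.33 in range 4 and 0.607 in range 5. The number of Mmp8 UMIs per Fcnb UMI was 1.81 (1.16 to 2.88) in non-myeloid barcodes. It was 0.0188, 0.0261, 0.0611, 0.376 (0.305 to 0.461) and 8.40 (6.51 to 10.99) in ranges 1 to 5, and so between the values of ranges 4 and 5. The interval of each of the 4 non-myeloid classes held the value over all of them (1.10 in erythroid-like to 2.45 in plasmacytoid dendritic-like barcodes).

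In the Car1-GFP library all 10 genes were at least 2-fold lower than in the marrow library, where 32.7% of 12076 measured genes were. Together they had 56.1 CPM against 36600 CPM. The log2 ratios ran from -7.95 for Mmp8 (0.608 against 150 CPM) to -10.96 for Wfdc21 (1.59 against 3154 CPM), with a median of -9.30 against -0.23 over all measured genes. Other scalings of the libraries moved all genes by 0.21 to 0.22 on the log2 scale. With a mean of CPM over barcodes in place of CPM of the sum, the log2 ratio was -8.9995 for Ltf in place of -9.79, -8.35 for Ngp in place of -9.05 and -8.56 for Lcn2 in place of -9.22. Sort, mice, depth and preparation differed together between the libraries and cannot be told apart. Only 1 Car1-GFP barcode met the 15% rule. The smallest deposited barcode had 4697 UMIs in the Car1-GFP library and 593 in the marrow library. Neutrophil barcodes with few UMIs could thus be counted in the marrow library only, and whether any were left out of the Car1-GFP library before deposit was not tested. All 8 primary granule genes, 16 measured other granule genes and 7 measured transcription factors of the lists were also lower.

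Most granule RNA of this library came from 3 barcodes, which held 1507 of the 2399 UMIs (62.8%). These 3 are the barcodes with at least 1% of UMIs from S100a8 and S100a9, a limit chosen after the data were seen. The first (6925 UMIs, 25.7% S100a8 and S100a9) had 410 UMIs of Ngp, 279 of Camp, 88 of Lcn2, 60 of Ltf, 22 of Wfdc21, 12 of Pglyrp1 and 1 of Fcnb, with 6 of Ly6g and 0 of Mpo and Elane. The second (15168 UMIs, 4.10%) had 377 UMIs of Camp, 152 of Ngp, 29 of Fcnb and 0 of Ltf, beside 210 UMIs of the elastase gene Elane and 26 of Mpo. The third (16748 UMIs, 2.13%) had 14 UMIs of Lcn2, 12 of Mmp8, 5 of Mmp9, 0 of Camp and Ltf and 51 of Retnlg, beside 326 UMIs of the beta globin gene Hbb-bs. The 3 barcodes thus differed in which granule genes they held. Ltf was in the first only, Elane and most Fcnb in the second, and most Mmp8 and Retnlg in the third. Camp and Ngp led in both the first and the second, and Lcn2 had 88, 3 and 14 UMIs. Car1, the gene of the sort, had 5, 1 and 5 UMIs in these barcodes, and Car2, an erythroid carbonic anhydrase gene, had 9, 19 and 55. Whether a barcode held more than 1 cell was not tested.

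**Figure D5:**
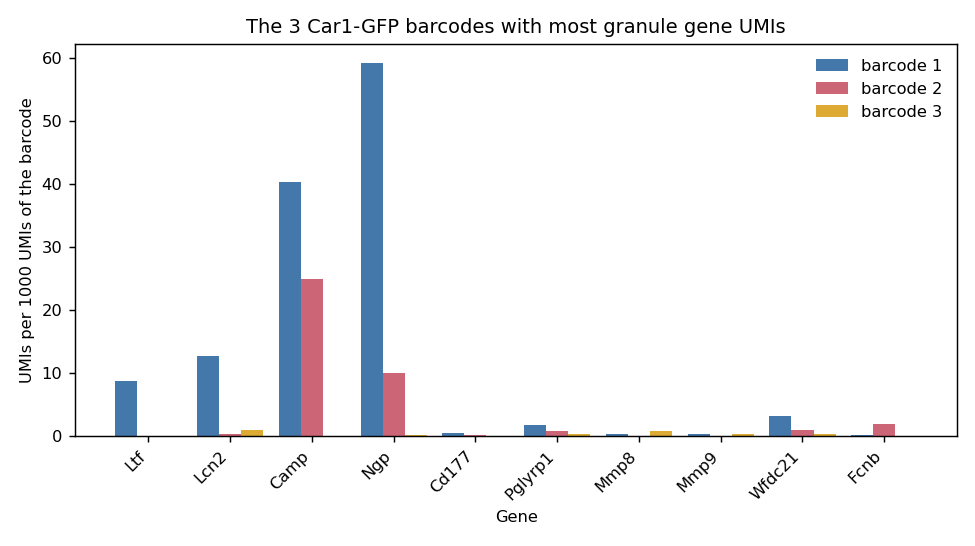
UMIs of each granule gene per 1000 UMIs of the barcode, in the 3 Car1-GFP barcodes with the most granule gene UMIs. Camp and Ngp lead in the first and second (279 and 410 UMIs in the first, 377 and 152 in the second), and the third has 14 UMIs of Lcn2 and 12 of Mmp8 but 0 of Camp.

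Without these 3, the other 2397 barcodes held 892 UMIs of the 10 genes, or 0.372 per barcode, at most 10 in any one, and 719 of them had at least 1. The level fell from 56.1 to 20.9 CPM, and the log2 ratio to the marrow library from -9.79 to -11.28 for Ltf, from -9.38 to -10.77 for Camp, from -8.46 to -10.27 for Fcnb and from -7.95 to -9.06 for Mmp8. The remaining RNA was found at 15.2 to 23.4 CPM in each of the 11 Car1-GFP clusters. One cluster, whose leading genes were Camp and Ngp, fell from 466 to 23.4 CPM when 2 of the 3 barcodes were left out. Relative to S100a8 and S100a9, the remaining Car1-GFP barcodes had Camp at 176 UMIs per 1000 against 147 in the marrow library's non-myeloid barcodes (log2 0.26, 0.10 to 0.41), Ngp at 136 against 90.1 (0.59, 0.41 to 0.77) and Wfdc21 at 12.2 against 26.8 (-1.14, -1.74 to -0.59). Fcnb stood at 5.23 against 1.90 (1.46, 0.37 to 2.45), from 12 UMIs.

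Over the 13 marrow clusters, the genes whose level went most closely with the sum of the 10 granule genes were S100a9 and S100a8 (r = 0.999 and 0.998 across clusters), which chose the neutrophil barcodes. G0s2 (r = 0.96), Orm1 (0.95), Gca (0.94), the gene of the granule-associated protein grancalcin, Zmpste24 (0.93), B230208H11Rik (0.92), Mapk13 (0.92), Chil1 (0.92) and Glrx (0.92) came next among 4647 genes with at least 200 UMIs. These values describe clusters of 1 library, 2 of which are neutrophil-like and set most of each correlation.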

How the data were processed

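The 2 libraries were made with 10x Genomics v2 chemistry, per the labels' protocols, and processed by the authors with Cell Ranger 2.1 and Seurat 2 on mm10, per the submitters' processing notes. The deposited values are raw UMI counts per gene and barcode, checked to be whole numbers. Barcodes with at least 500 UMIs and under 10% mitochondrial UMIs were kept. Scrublet (scanpy 1.11.5) marked 2.66% of marrow barcodes as doublets, which were removed. In the Car1-GFP library it marked 0.375%, too few to be relied on, and none were removed. Clusters are Leiden clusters at resolution 1 on 2000 variable genes and 30 principal components. The 10 genes and all lists were chosen with earlier results of these data known. All 10 genes are named, and from each other list up to 4 genes with the largest absolute log2 ratios; exceptions are marked.

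A gene counted as measured with at least 20 UMIs over both sides and as changed past 2-fold, with no test, since each group is 1 library. A count of 0 allows up to 3 counts. The counting script was tested on simulated data for neutrophil against other marrow barcodes (10404 genes, 200 changed, 200 recovered). The changed genes were drawn from those with many UMIs and were changed by more than 2-fold. Recovery of genes with few UMIs, such as Mmp8 in range 1, was not tested. Scaling alternatives used edgeR 4.0.16 and DESeq2 1.42.0. The data precision follows the depth given with each group of barcodes.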

Additional observations from a re-analysis of the deposited data

How the results depend on the processing

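The counts of granule genes past 2-fold were recomputed under other thresholds of the S100a8 and S100a9 share (10% and 20%), with doublets kept, with at least 1000 UMIs per barcode, and with other totals, orders, clusterings and scalings. Of 280 values of single genes under these alternatives, 0 changed the direction of a 2-fold difference and 101 moved beyond their counting interval. Ordering barcodes by the share of S100a8 and S100a9 left 1 gene (Mmp9) at least 2-fold higher in range 5, against 2, and 9 in place of 10 genes were higher in neutrophil barcodes of at least 1000 UMIs. Without a minimum of UMIs per gene, the background counts were 873 in place of 458 genes higher in neutrophil barcodes, 1200 in place of 306 higher in range 5 and 1703 in place of 675 lower in range 5; the added genes have few UMIs. No paired analysis was possible because each group is 1 library. Depth limits Mmp8, Mmp9, Cd177 and Fcnb most, each under 2 UMIs per neutrophil barcode.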
